A study of Rattus norvegicus with 2 samples.

Results

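The genes described here are 9 genes of the renin-angiotensin system: the precursor gene Agt, the peptidase genes Ace, Enpep and Mme, the receptor genes Agtr1a, Agtr1b, Agtr2 and Mas1, and the (pro)renin receptor gene Atp6ap2. They were chosen by name, through the RefSeq transcript accession that the array files give for each probe. Earlier results of these data were known when they and the gene lists below were chosen. By the RefSeq gene table of build GRCr8, Agt lies on chromosome 19, Ace on 10, Agtr1a on 17, Mas1 on 1, Agtr1b, Enpep and Mme on 2, and Agtr2 and Atp6ap2 on X. The 9 genes had 11 probes, each printed as 1 spot, out of 45595 probes and 16581 named genes on the array. The tissue was the NTS (nucleus tractus solitarii), a brainstem relay for visceral afferents, of female and male spontaneously hypertensive rats (SHR), an inbred strain that becomes hypertensive as it matures, killed at 9 weeks of age. The dissected block reached from 1.0 mm rostral to 0.5 mm caudal of the calamus scriptorius. For each sex, 100 ng of RNA from each of 5 rats was combined into 1 pool, and 1 array was hybridised per pool, female and male. No treatment, mutation or transgene is named in the labels, and no strain other than SHR was analysed here. With 1 array per sex no spread between animals can be given, so no test was run and every difference below is between 2 pools.

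In the renin-angiotensin system, angiotensinogen is cut to angiotensin I, and angiotensin-converting enzyme (ACE) trims that to angiotensin II, which acts mainly through the AT1 receptor. A second branch produces angiotensin-(1-7), in part through neprilysin, and acts through the Mas receptor. In the NTS, where baroreceptor afferents end, angiotensin II is known to blunt the baroreflex and angiotensin-(1-7) to facilitate it, and astrocytes are the main brain source of angiotensinogen.

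Values are scaled signals, the processed intensity of a spot with the 75th percentile of its array set to 100. Members are given per probe. Other genes with more than 1 measured probe are given as the mean of the log2 levels of their probes, unless a probe is mentioned. Such a value is not the reading of 1 spot, and the sums over lists add these values. The ± after a signal or a difference is the error that the Agilent Feature Extraction program gives for the spot, carried through to the difference. It covers the spot and not the animals, the pool or the labelling. For a difference its median was 0.20 over spots well above background on both arrays. The SD of the difference over repeated spots of 1 probe was 0.04, the median of 1326 probes with at least 8 spots. A difference inside the program's error can therefore exceed the scatter of repeated spots. Differences are female minus male on the log2 scale, and folds divide the higher value by the lower. Of the spots outside the controls, 82.3% were well above background for females and 80.1% for males. The lowest signal well above background was 0.344 for females and 0.365 for males. No spot was saturated. The sex labels were checked with Y-linked genes. The Eif2s3y spot failed the background criterion for females and read 22.4 for males, at least 65.0-fold lower in females. Of the 2 Ddx3y probes, 1 read 10.2 for females and 24.3 for males, and the other was below background for females and at 6.94 for males. The catecholamine synthesis gene Dbh, taken afterwards as a check of the dissected tissue, gave 381 for females and 399 for males, and Tlx3 had no named probe.

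Of the 9 genes, 8 were well above background on both arrays and Agtr2 was on neither. Among the 8, Mme and Ace were at least 1.5-fold higher in the female pool, Mas1 was at least 1.5-fold higher in the male pool, and the other 5 lay within 1.5-fold. Over all 13428 measured genes, 2.29% were at least 1.5-fold apart, 1.5% with the female and 0.797% with the male array higher. That split, 201 genes against 107, was 303 against 78 after centring on spike-in controls and 137 against 157 after quantile normalization. Only Mme passed 2-fold, where the share of all genes was 0.551%. Of the 10 measured probes, 4 were at least 1.5-fold apart, against 2.88% of all measured probes, and 1 was at least 2-fold apart, against 0.514%. The median difference of the 8 genes was 0.06, and that of all measured genes was 0.02.

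**Figure D1:**
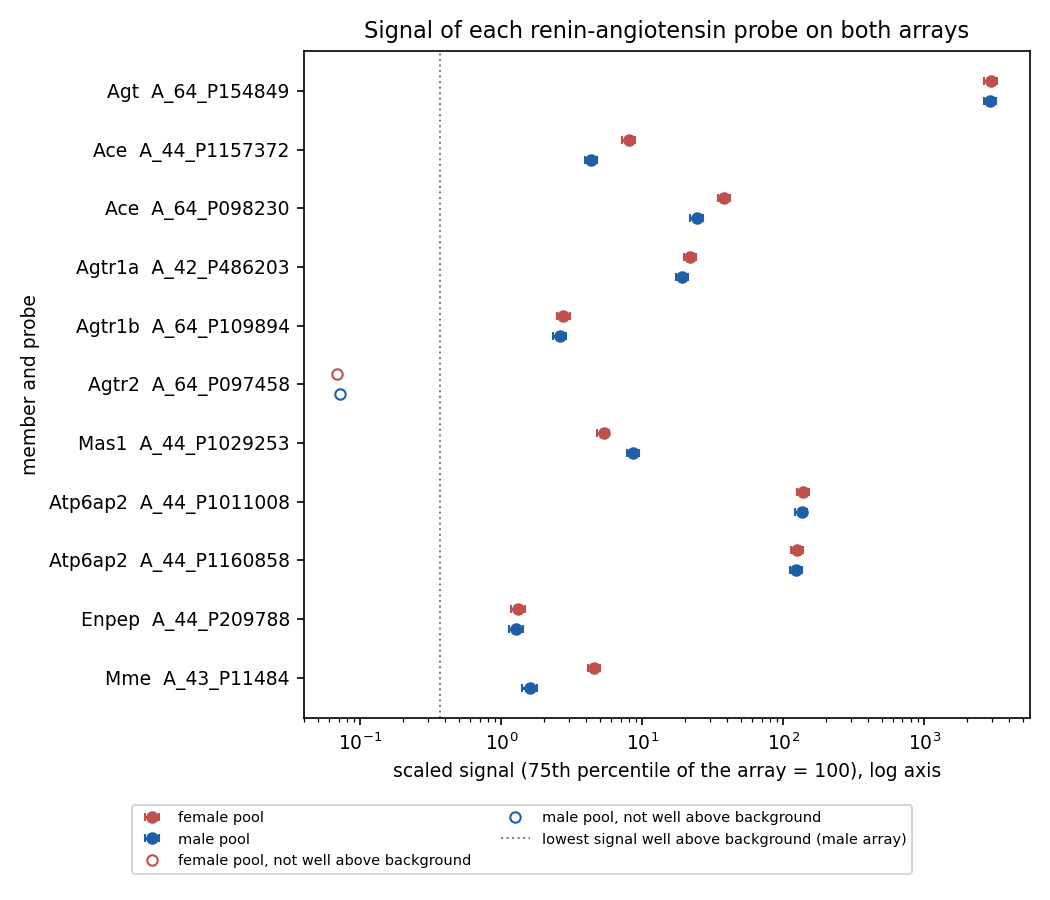
Scaled signal of each of the 11 probes (log axis) on the female array (red) and the male array (blue), 1 spot each, with bars for the Feature Extraction error and open circles for spots not well above background. The pairs stand apart for both Ace probes, Mas1 and Mme, while both Agtr2 spots lie left of the dotted line. Levels of different probes cannot be compared with each other.

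Agt encodes angiotensinogen, the precursor of all angiotensin peptides. Its probe A_64_P154849 gave 2970 ± 297 for females and 2944 ± 294 for males. The spots read 79549 and 77356 intensity units against local backgrounds of 38.5 and 39, female first. The difference was 0.013 ± 0.20, a 1.01-fold ratio, and 91.0% of measured genes differed by more.

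Ace encodes ACE, a peptidase of the membrane that also inactivates bradykinin and is abundant on endothelium and on choroid plexus epithelium. Its 2 probes were both brighter on the female array. Probe A_64_P098230 gave 37.9 ± 3.79 for females and 24.3 ± 2.43 for males, a difference of 0.64 ± 0.20. The second, A_44_P1157372, gave 8.01 ± 0.806 for females and 4.33 ± 0.443 for males, a difference of 0.89 ± 0.21. Both differences exceeded the spot error, and the gap between them, 0.25, was smaller than its error of 0.29. The mean over the probes was 0.76 ± 0.15, a 1.70-fold ratio, and 1.16% of measured genes (156) differed by more. Measured genes were split by mean signal into 4 bins of equal size, bin 1 the dimmest, and Ace lies in bin 2, where 1.1% of genes were at least 1.5-fold apart. Which Ace transcripts each probe reads is not known here. In whole tissue, more cells of a type cannot be told apart from more RNA per cell.

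Mme encodes neprilysin, a membrane peptidase that forms angiotensin-(1-7) from angiotensin I and degrades natriuretic peptides, tachykinins and enkephalins. Its probe A_43_P11484 gave 4.56 ± 0.465 for females and 1.59 ± 0.186 for males. The spot read 133.5 units over a local background of 32 on the female array, and 67 units over 34 on the male array. The processed signals were 13.3 times the lowest signal well above background on the female and 4.35 times on the male array, so the male spot was dim. The difference was 1.52 ± 0.22, a 2.87-fold ratio, and 28 measured genes differed by more. Mme lies in bin 1, where 6.97% of genes were at least 1.5-fold apart. In that bin the SD of the difference over all genes was 0.36, and it was 0.19 over repeated spots of 1 probe, the median of 41 probes with at least 8 spots. The difference was 0.72 with normexp background correction, which adds an offset of 50 to every spot, and 0.96 without background correction. Plain subtraction of the local background, chosen after seeing the data, gave 1.58.

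Enpep encodes aminopeptidase A, which converts angiotensin II to angiotensin III. Its probe A_44_P209788 gave 1.31 ± 0.151 for females and 1.28 ± 0.149 for males. These were 3.82 and 3.504 times the lowest signal well above background on the female and male arrays, and the difference of 0.04 ± 0.24 was well inside the spot error. Of the 3 peptidase genes, then, Ace and Mme were brighter on the female array and Enpep was within 1.03-fold.

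Agtr1a encodes the AT1a receptor, 1 of a pair of AT1 subtypes that rodents carry. Its probe A_42_P486203 gave 21.8 ± 2.18 for females and 19.1 ± 1.91 for males. The difference of 0.19 ± 0.20, a 1.14-fold ratio, was smaller than its spot error, and 19.8% of measured genes differed by more. It lies in bin 3, where 0.685% of genes were at least 1.5-fold apart. In that bin the SD of the difference was 0.16 over all genes. It was 0.054 over repeated spots of 1 probe (median of 110 probes), which the Agtr1a difference exceeded. Agtr1b encodes the second AT1 subtype. Its probe A_64_P109894 gave 2.76 ± 0.288 for females and 2.59 ± 0.275 for males, a difference of 0.09 ± 0.21. The transcripts of both AT1 genes are close paralogues and the probe sequences were not used here, so how far each probe reads the other gene is unknown.

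Agtr2 encodes the AT2 receptor, which opposes many AT1 effects, and lies on chromosome X. Its probe A_64_P097458 gave 0.0685 for females and 0.0720 for males. The spot read 37 units over a local background of 37 on the female array, and 36.5 over 37 on the male array. Both signals were below the lowest signal well above background, so no fold is given. This bounds what the probe measured and does not show that the receptor is missing from the tissue.

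Mas1 encodes Mas, the angiotensin-(1-7) receptor. It was the 1 gene of the set brighter on the male array beyond 1.5-fold. Its probe A_44_P1029253 gave 5.303 ± 0.538 for females and 8.62 ± 0.867 for males, from a spot of 140.5 units over a local background of 38 for females and 202 units over 40 for males. The difference was -0.70 ± 0.21, a 1.63-fold ratio, and 1.53% of measured genes (205) differed by more. Mas1 lies in brightness bin 2, like Ace. It did not reach 1.5-fold with normexp correction, at -0.49, or without background correction, at -0.56.

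Atp6ap2 encodes the (pro)renin receptor, which is also an accessory subunit of the vacuolar proton pump, and is X-linked. Probe A_44_P1011008 gave 138 ± 13.8 for females and 135 ± 13.5 for males. The other probe, A_44_P1160858, gave 126 ± 12.6 for females and 123 ± 12.3 for males. The 2 differences, 0.032 and 0.028, were far inside the spot error, and their mean was a 1.02-fold ratio. Atp6ap2 and Agt lie in bin 4, the brightest, where 0.417% of genes were at least 1.5-fold apart.

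**Figure D2:**
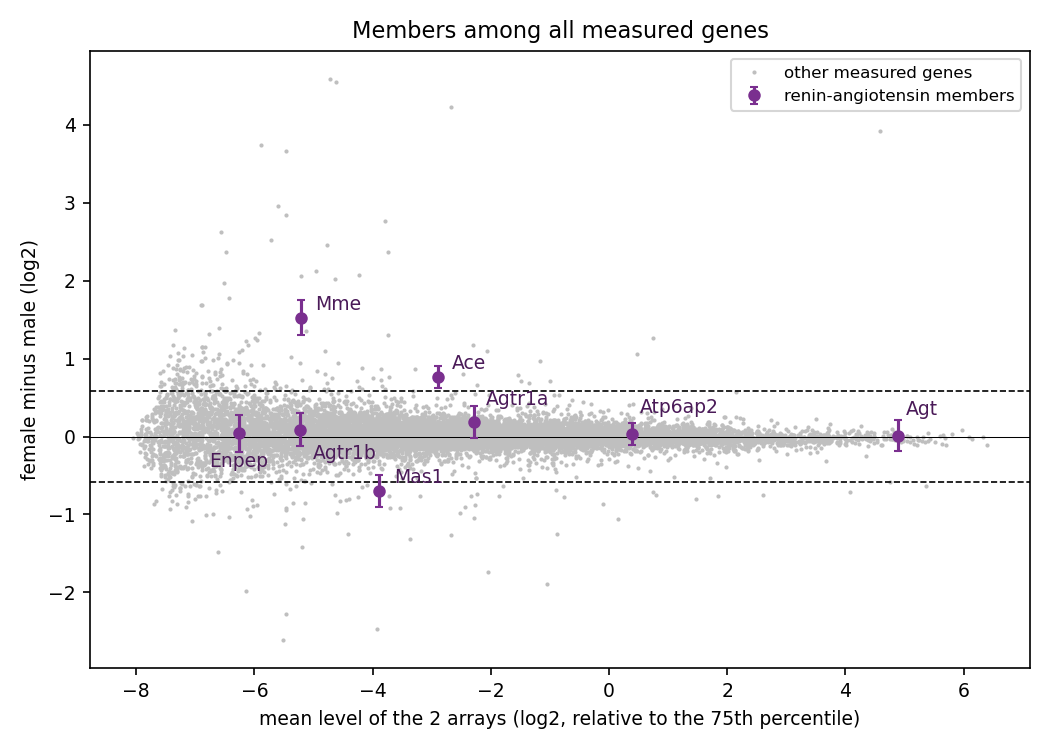
Difference (female minus male, log2) against mean level (log2, relative to the 75th percentile) for the 13428 measured genes (grey) and the 8 measured members (purple, bars for the Feature Extraction error). Dashed lines mark 1.5-fold; Mme at 1.52 and Ace at 0.76 lie above them, Mas1 at -0.70 lies below, and the other members lie between.

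To show the regulatory DNA of the genes that differed, the 250 bases before the transcript start are printed for Ace, Mme and Mas1, from RefSeq, build GRCr8, 5′ to 3′ on the strand of the gene. Of the 9 genes, 8 had an entry in the promoter table, and Agt had none. The array design names an older rat assembly, so these coordinates belong to the RefSeq table alone. Capitals mark every match to the searched motifs. The window of Ace is chr10:91409879-91410128, that of Mme chr2:149872247-149872496 and that of Mas1 chr1:50427840-50428089, all on the plus strand. The starts used for Mme and Mas1 lie inside the annotated span of the gene, so other starts exist.
Ace: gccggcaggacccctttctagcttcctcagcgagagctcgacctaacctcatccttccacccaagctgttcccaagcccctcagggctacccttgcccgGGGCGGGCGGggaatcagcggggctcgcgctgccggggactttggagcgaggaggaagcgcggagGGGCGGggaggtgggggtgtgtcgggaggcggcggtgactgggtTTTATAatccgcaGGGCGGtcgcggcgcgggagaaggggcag
Mme: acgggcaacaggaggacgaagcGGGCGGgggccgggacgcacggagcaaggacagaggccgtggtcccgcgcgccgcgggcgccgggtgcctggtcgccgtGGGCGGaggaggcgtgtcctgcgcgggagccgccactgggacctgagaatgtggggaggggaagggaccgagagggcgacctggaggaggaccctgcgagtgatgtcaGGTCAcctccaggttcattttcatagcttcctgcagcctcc
Mas1: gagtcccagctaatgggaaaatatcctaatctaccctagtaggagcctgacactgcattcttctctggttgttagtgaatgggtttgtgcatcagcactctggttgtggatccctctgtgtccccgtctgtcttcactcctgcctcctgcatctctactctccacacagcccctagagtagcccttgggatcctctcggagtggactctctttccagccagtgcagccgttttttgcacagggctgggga

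Both strands were searched for the TATA box TATAAA, the CCAAT box, the GC box GGGCGG, the estrogen half-site GGTCA, the cyclic AMP element TGACGTCA, and the estrogen and androgen receptor palindromes. A palindrome of the estrogen receptor also holds the half-site. The Ace window held 4 copies of GGGCGG, 2 of them overlapping, and TATAAA on the opposite strand from 42 to 37 bases before the start. The Mme window held 2 copies of GGGCGG and 1 of GGTCA, from 41 to 37 bases before the start. No searched motif was in the Mas1 window. Members within 1.5-fold held the same motifs. GGTCA was in the windows of Agtr1a, Agtr1b and Atp6ap2, GGGCGG in those of Agtr1a and Atp6ap2, and TATAAA in that of Agtr1a. Among 33469 RefSeq windows of the same length, GGGCGG was in 30.5%, GGTCA in 35.4% and TATAAA in 12.9%. The CCAAT box was in 34.0%, TGACGTCA in 1.59%, the estrogen palindrome in 8 windows and the androgen palindrome in 4. The share of G and C was 69.2% for Ace, 70.4% for Mme and 53.2% for Mas1, and the median window had 51.2%. A match to letters is a description and not a binding site.

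Other genes of the pathway were taken from a list of 21 peptidases, inhibitors and receptors, all with a named probe. Of the 16 measured, none was 1.5-fold apart, with a median difference of 0.00 and a range of -0.27 to 0.27. The lysosomal proteases Ctsd, at 1443 for females and 1458 for males, and Ctsa, at 333 on both, were the brightest 2. The extremes were the endopeptidase gene Nln at 0.27 and Prcp, which encodes a carboxypeptidase that cleaves angiotensin II, at -0.27. Both were named after their values were seen, and the 2 probes of Nln gave 0.54 and 0.006. Ctsg, Cma1, Cpa3, Mrgprd and Tmprss2 were below background on both arrays.

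Of 21 measured receptor partners and signalling genes, 1 was at least 1.5-fold apart, with a median of 0.00. That gene was Zbtb16, which encodes a zinc finger protein known to bind the AT2 receptor. It was dim, at 1.70 for females and 0.863 for males, a 1.97-fold ratio, and its AT2 partner gene Agtr2 was below background. The 16 listed subunits of the vacuolar proton pump, the complex that the Atp6ap2 product joins and not its full set of subunit genes, were within 1.5-fold, with differences from -0.09 to 0.06. Atp6ap1, the other accessory subunit gene, gave 724 for females and 717 for males, and the subunit gene Atp6v1b2 gave 589 and 598, female first.

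The aldosterone arm had 6 measured genes of 9 with a named probe, none of them 1.5-fold apart, and a median of 0.08. Cyp11b2, the aldosterone synthase gene, had 1 probe above background on the female array only, at 0.596 for females and 0.372 for males. The 1.602-fold ratio is a plain ratio of 2 dim spots and not a bound. The lowest signal well above background on the male array was 0.365. The other Cyp11b2 probe was below background on both arrays. Hsd11b2 encodes the enzyme that shields the mineralocorticoid receptor from glucocorticoids and marks a group of sodium-sensing NTS neurons. It gave 27.7 for females and 21.0 for males, a difference of 0.40. Sgk1, an aldosterone-induced kinase gene, gave 29.2 for females and 28.1 for males.

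Measured genes of peptidases related to the members were within 1.5-fold between the pools. In the neprilysin family apart from Mme, 5 of 6 genes were measured and none was 1.5-fold apart, with a median of -0.13. The largest difference was -0.50 in Kel, a dim gene at 0.462 for females and 0.653 for males. Ece2, an endothelin-converting enzyme gene, gave 69.3 for females and 68.7 for males, and Ecel1 gave 10.12 and 11.04, female first. Of 10 other measured genes of peptidases and their relatives none was 1.5-fold apart, with a median of -0.03. Cpe, the prohormone carboxypeptidase gene, gave 780 for females and 784 for males, and Dpp6, a potassium channel subunit gene related to dipeptidyl peptidases but without their activity, gave 90.6 for females and 88.1 for males. Among 9 measured genes for peptides that neprilysin or ACE cleave, or for their receptors, 1 was past 1.5-fold, and the median was 0.02. Calca, which encodes calcitonin gene-related peptide, gave 6.13 for females and 15.2 for males, a difference of -1.31, with both probes lower in females. In these 3 lists Phex, Dpp4 and Kng1 each had a probe above background on the female array only, with bounds of at least 1.45-fold, 1.21-fold and 1.31-fold. Bdkrb2, measured on both arrays by another probe, also had such a probe, with a bound of at least 1.15-fold.

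**Figure D3:**
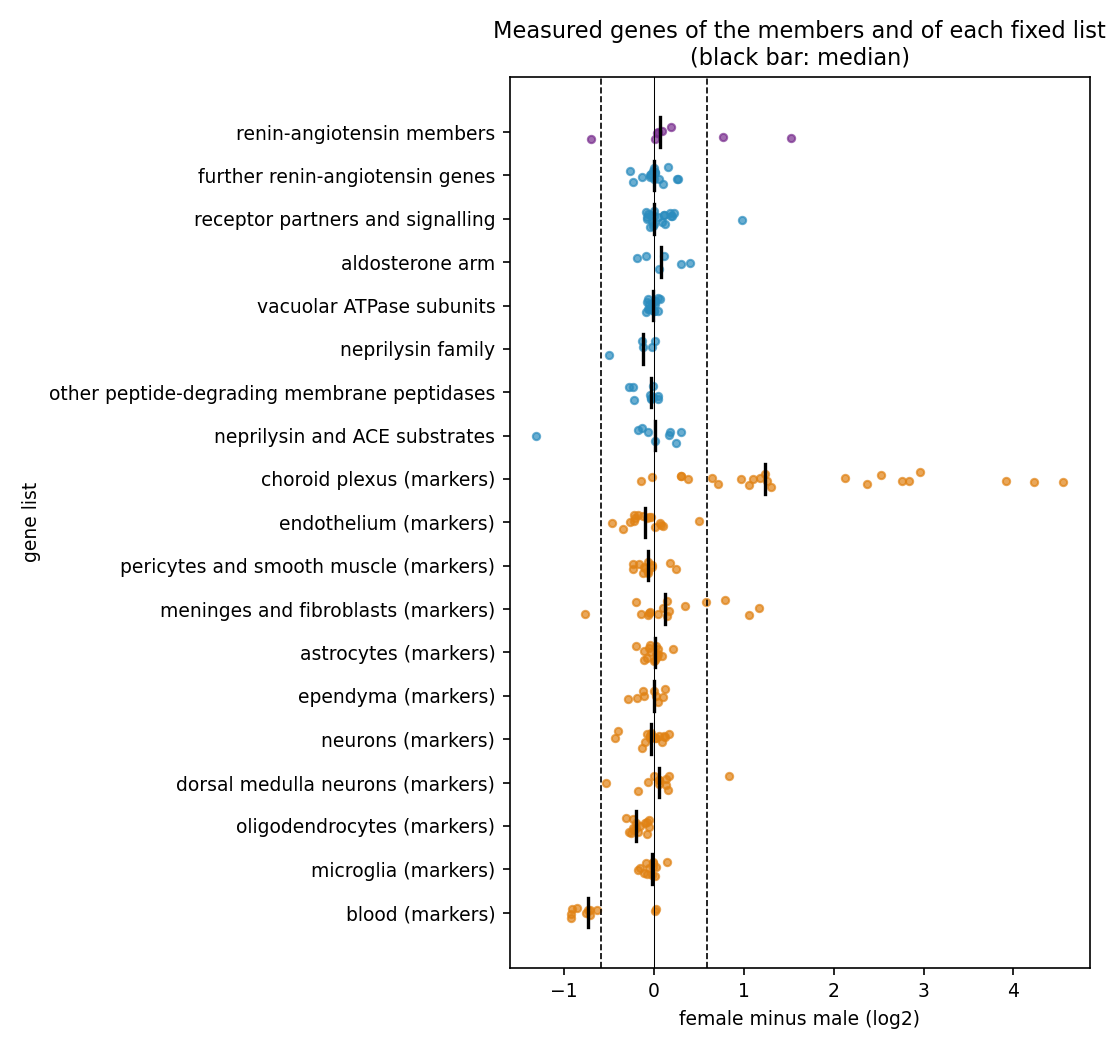
Difference (female minus male, log2) of each measured gene in the 8 members (purple), the pathway lists (blue) and the marker lists (orange), with a black bar at each median and dashed lines at 1.5-fold. The medians of the pathway lists lie between -0.13 and 0.08, with Calca at -1.31 and Zbtb16 at 0.98 past 1.5-fold, the choroid plexus markers reach 4.56 and have a median of 1.23, and most blood markers lie near their median of -0.73.

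Choroid plexus markers were mostly higher on the female array, and meningeal and fibroblast markers were mixed, with 10 higher in the female and 6 in the male pool. Of 26 choroid plexus markers 24 had a named probe, 23 were measured, and 18 of these were at least 1.5-fold higher in the female pool and none in the male pool. Their median difference was 1.23. Their summed scaled signal was 10356 for females and 1185 for males, most of it from Ttr, and 1031 for females and 568 for males without that gene, a choice made after seeing the data. The largest differences were in Kcnj13 at 23.5-fold, Sostdc1 at 18.8-fold, Ttr at 15.1-fold, Prlr at 7.79-fold and Cldn2 at 7.16-fold. Tmem72 was above background on the female array only, at least 7.22-fold higher in females, and F5 and Slc13a4 had no named probe. Meningeal and fibroblast markers had a sum of 1615 for females and 1519 for males, and of 16 measured 3 were at least 1.5-fold higher in the female and 1 in the male pool. Without Ptgds, the brightest of them, the sums were 1074 for females and 1157 for males. Those were Slc47a1 at 1.17, Igfbp2, also a choroid plexus marker of the list above, at 1.06, Igf2 at 0.80 and Col1a2 at -0.76. The part of these tissues in the Ace and Mme values was not tested.

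Endothelial cells are another known site of Ace. Of 16 measured endothelial markers none was 1.5-fold apart, with a sum of 794 for females and 819 for males and a median of -0.10. Of these, 5 were higher in the female and 11 in the male pool, with differences from -0.47 to 0.50. The 2 brightest, Bsg and Slc2a1, were among the 5. Bsg gave 345 for females and 341 for males, and Slc2a1 gave 204 for females and 195 for males. None of the 13 measured pericyte and smooth muscle markers was 1.5-fold apart either, with a median of -0.07. In this list 2 were higher in the female and 11 in the male pool. Their sums were 199 and 198, female first, and 132 and 138 without Cspg4, the brightest of them. Vtn gave 30.6 for females and 31.0 for males, and Cspg4 gave 67.2 and 59.6, female first. Cnn1 was above background on the female array only.

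For Agt, the relevant cells are astrocytes, and none of their 16 markers was 1.5-fold apart, with sums of 17969 for females and 18078 for males. Aldoc gave 6964 for females and 7120 for males, and Apoe gave 5083 for females and 5009 for males. The same held for all 17 neuron markers, with a median of -0.04 and Uchl1 and Gap43 each at 1.03-fold. Of 12 dorsal medulla neuron markers only Npr3, a dim gene at 0.906 for females and 0.508 for males, was past 1.5-fold. All 13 microglial markers were within 1.5-fold, with a median of -0.02 and Ctss at 1.01-fold. The 9 ependymal markers were too, with a median of -0.003, Tppp3 at 1.08-fold and Cd24 at 1.22-fold. The 15 oligodendrocyte markers had a median of -0.20, with Qdpr at -0.21, and none was 1.5-fold apart. All 15 were higher in the male pool, with sums of 3181 for females and 3714 for males.

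Most blood markers were higher on the male array, on which Mas1 was brighter too. Of 11 measured, 9 were at least 1.5-fold higher in the male pool, with sums of 4924 for females and 7771 for males and a median of -0.73. The 5 with the largest differences were Slc4a1, Ahsp, S100a8, S100a9 and Hbb, from 1.68-fold to 1.90-fold, and Epb42 was below background on both arrays. Pf4 and Gp9, the 2 measured markers within 1.5-fold, had differences of 0.006 and 0.02. Whether blood has a part in the Mas1 value was not tested.

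**Figure D4:**
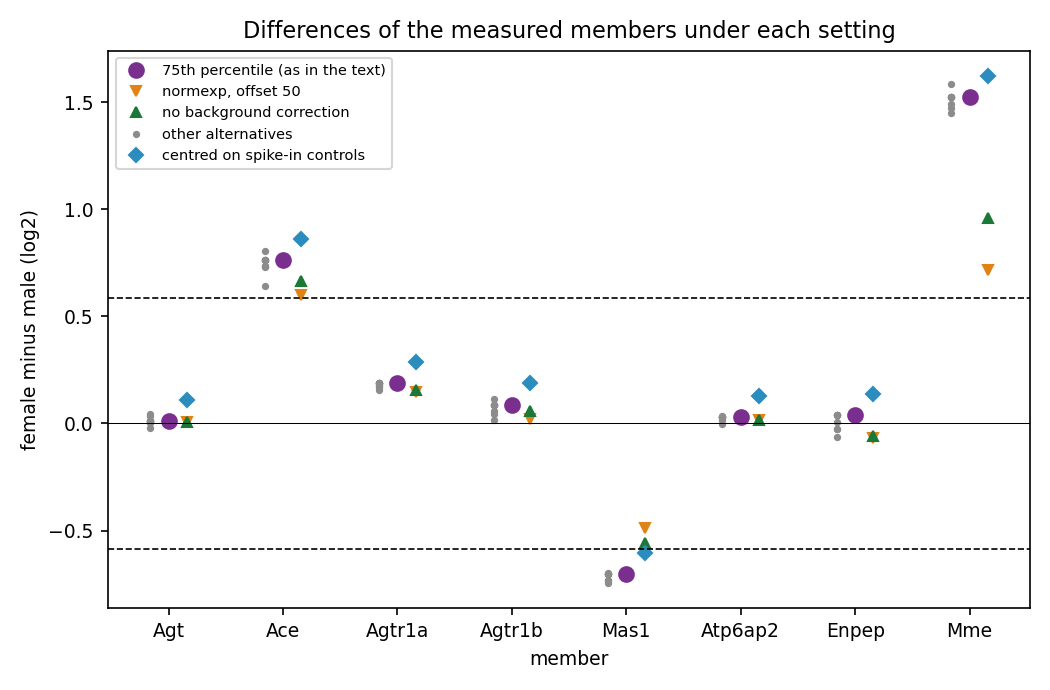
Difference (female minus male, log2) of each of the 8 measured members under the setting of the text (large purple points) and under every alternative (small points), with dashed lines at 1.5-fold. Mme and Ace stay above the upper line, Mas1 crosses the lower line with normexp correction and without background correction, and the other members stay between the lines.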

How the data were processed

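The members and the gene lists were chosen with earlier results of these data known. The scanner files hold spot intensity on a linear scale, background-corrected within each array by the authors' run of Agilent Feature Extraction, version 11.5.1.1 per the file headers and 9.1 per the submitters' processing notes. The deposited value table holds the same signal divided by 1 constant per array, 23.4 for the female and 22.8 for the male array, and served as an alternative. The deposited flags (score type, 0 or 1) give spots well above background.

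From these, log2 of the processed signal minus the 75th percentile of each array was taken. Control spots and outlier-flagged spots (363 female, 284 male) were left out, repeated spots were averaged, and a gene was the mean of its probes well above background on both arrays. Accessions were matched without versions to RefSeq genes of assembly GRCr8, which named 21109 of 45595 probes. That table served for names and chromosomes, and the RefSeq promoter table for sequence. A bound sets the bright signal against the higher of the dim signal and the lowest signal well above background. Both samples are pools with no replicate, so calls are a fixed 1.5-fold and no p-value is given. Text genes are all 9 members, Eif2s3y and Ddx3y, and from each list up to 5 genes past 1.5-fold, or its 2 brightest where none was; a few genes are not reported here. Normexp and uncorrected values used the median pixel signal in place of the mean, which was not used here. The counting step was tested on simulated data. Tools were Python 3.11.15, numpy 2.4.6, pandas 2.3.3, R 4.3.3 and limma 3.58.1.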

Additional observations from a re-analysis of the deposited data

How the results depend on the processing

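No paired analysis was possible because there is a single pooled array for females and a single one for males, and for the same reason no array could be left out. Ace kept its direction in all 13 alternatives and stayed at least 1.5-fold apart in each, from 0.60 with normexp to 0.86 after centring on spike-in controls. Mme did so in the 12 that measured it, from 0.72 to 1.62, and has no value among the probes above the median signal. Mas1 kept its direction in 13 and stayed past 1.5-fold in 11, from -0.74 to -0.49. These counts include alternatives that could not change a value. No member spot was outlier-flagged, and the deposited table is the same signal over a constant. For Mme and Mas1, with 1 probe each, the probe choices and the dim-spot filters could not change the difference either. Agtr1a and Agtr1b stayed above 0 wherever measured, Agt and Atp6ap2 changed sign after median centring, and Enpep changed sign in 5 of 12, all within 1.5-fold. With 2-fold in place of 1.5-fold, 1 member and 1 probe passed and the share of all genes was 0.551%. The share of 2.29% at 1.5-fold was 0.521% with normexp, 0.655% without background correction, 0.773% among the probes above the median signal, 4.25% with plain subtraction (chosen after seeing the data) and 9.93% with no filter on dim probes. With no filter, 1 further pathway gene passed, Tmprss2, which was below background on both arrays. The choroid plexus median of 1.23 was 1.01 with normexp. Spot brightness over background limits Mme on the male array, Agtr1b and Enpep most, and Agtr2 altogether.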
